A study of Arabidopsis thaliana and Zea mays with 12 samples.

Results

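Leaves break down leucine, isoleucine and valine in the mitochondrion. For leucine, isovaleryl-CoA dehydrogenase (IVD) acts first on the acyl-CoA chain and methylcrotonoyl-CoA carboxylase (subunits MCCA and MCCB) follows. IVD hands its electrons to the electron transfer flavoprotein, a dimer of the ETFALPHA and ETFBETA products, and the oxidoreductase ETFQO passes them on to ubiquinone of the respiratory chain. D-2-hydroxyglutarate dehydrogenase (D2HGDH) feeds the same flavoprotein, and methionine gamma-lyase (MGL) makes a precursor of isoleucine from methionine. In Arabidopsis the pathway is known for its use in extended darkness and under sugar starvation, when amino acids serve as fuel.

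These 8 genes were followed across the 6 Arabidopsis arrays of the series, out of 22746 probe sets on each array once the manufacturer's controls were left out. Each gene was matched by its locus code. All 8 had 1 probe set each that was annotated to that gene alone, so all 8 are described. They were chosen with the Br and Ag values of these same arrays in view. Their differences between the groups are therefore given as a description and support nothing by themselves. Which of them passed in a fit over all probe sets is also given below, and it is no independent test. The 8 loci lie on 5 chromosomes, and no coordinates are given because the files name no genome build.

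The arrays compared Arabidopsis thaliana plants of a phenotype labelled Br with plants of a phenotype labelled Ag, 3 arrays each. The tissue was leaf from plants grown for 2 weeks and harvested around midday of the photoperiod. No allele, strain or treatment is given in the labels beyond those names. Each array held RNA pooled over several plants, so the spread between arrays is a spread between pools. The series also holds 6 maize arrays, where 0 probe sets carried the symbol of one of these 8 genes.

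Values are array intensities on a linear scale as deposited, and the number of arrays limits their precision. The median probe set read between 32.3 and 37.5. The leaf genes RCA, LHCB4.1 and PSAE-1 read between 4237 and 7185 on every array, while the root hair expansins EXPA7 and EXPA18 stayed at or under 17.0. These were the 3 measured of 10 listed leaf markers and the 2 measured of 9 root markers. Of 6 seed markers, 0 were measured. As deposited, all 3 leaf genes were lower on every Br array than on any Ag array, with Br means 0.770, 0.764 and 0.797 of the Ag means. After quantile normalization between arrays their log2 differences were -0.02, -0.0042 and 0.06. Over the other settings run they reached -0.43, -0.45 and -0.40, so the difference of these bright genes depended on the scaling. The first Br array stood apart. On the first principal component, with 45.5% of the variance, it lay at 5.57, between the other Br arrays (34.5 and 42.6) and the Ag arrays (-32.8 to -24.6), so results below are also given without it. The ratio of 3' to 5' signal of control transcripts, a measure of RNA quality, did not overlap between the groups for 2 of 3 controls. For ubiquitin it was 1.21, 0.908 and 1.01 on the Br arrays, against 1.76, 2.35 and 2.01 on the Ag arrays. For actin it was 1.64, 1.74 and 1.20 on the Br arrays, against 1.94, 1.90 and 2.35 on the Ag arrays. For GAPDH the groups overlapped, at 0.800, 0.718 and 0.779 on the Br arrays, against 0.794, 0.898 and 0.903 on the Ag arrays. The part of RNA quality in the values below was not tested.

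The genes split into those lower in Br and those that were not. ETFBETA, ETFQO, IVD and MCCA read lower on every Br array than on any Ag array, with Br means between 0.142 and 0.320 of the Ag means. Their groups did not overlap after normalization either. MCCB was lower on 2 of the 3 Br arrays. ETFALPHA, D2HGDH and MGL had Br means above their Ag means, with overlapping arrays. Over all probe sets, 20.7% had groups that did not overlap, and 8.67% had every Br array below every Ag array. In leaf RNA, fewer cells of a type and less RNA per cell cannot be told apart.

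**Figure D1:**
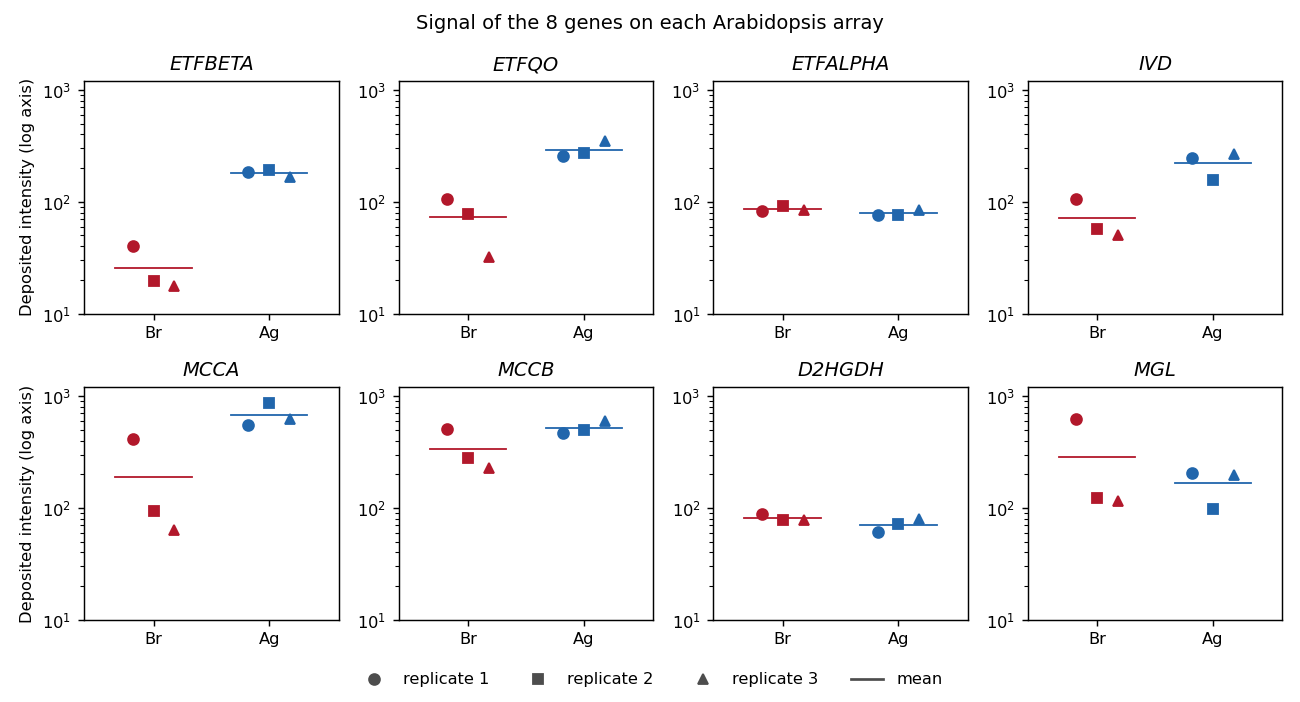
Deposited intensity (log axis) of the 8 genes in Br and Ag plants, a point per array with its replicate number as the marker and a line at the group mean. ETFBETA, ETFQO, IVD and MCCA show Br points wholly below the Ag points, while the ETFALPHA and D2HGDH points of both groups lie close together.

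Among the electron carriers, ETFBETA showed the widest gap. It read 39.9, 19.5 and 17.8 on the Br arrays, against 185, 192 and 168 on the Ag arrays. The Ag arrays stayed close together, and the highest Br array lay far under the lowest Ag array. The means were 25.7 ± 12.3 in Br and 182 ± 12.7 in Ag (SD, n = 3 each), a log2 difference of -2.32 ± 0.20 (Br minus Ag, SE of the fit). This difference is on the log2 scale after 16 was added to each intensity, which understates the change of a dim gene. With 1 added in place of 16 it was -2.93. Without the first Br array it was -2.55.

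ETFQO, the ubiquinone-linked partner of the flavoprotein, read 107, 78.0 and 32.3 on the Br arrays, against 258, 273 and 347 on the Ag arrays. All Br arrays were low, and the third was the lowest. Means were 72.4 ± 37.6 in Br and 293 ± 47.6 in Ag (SD, n = 3 each), with a log2 difference of -1.91 ± 0.34. It was -2.22 without the first Br array.

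ETFALPHA encodes the other subunit of the dimer. It read 82.4, 91.1 and 85.2 on the Br arrays, against 76.1, 76.6 and 84.5 on the Ag arrays. The lowest Br array lay under the highest Ag array, and the whole set spanned little. The log2 difference was 0.06 ± 0.11, and it ran from 0.02 to 0.10 when any 1 array was left out. The signal of ETFBETA divided by that of ETFALPHA was 0.484, 0.214 and 0.209 on the Br arrays, against 2.43, 2.51 and 1.98 on the Ag arrays. The size of such a ratio does not compare the amounts of the transcripts, since probe sets differ in brightness. Its difference between groups shows that the signals of the subunit genes changed unequally.

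In the leucine branch, IVD read 107, 57.3 and 50.7 on the Br arrays, against 248, 157 and 267 on the Ag arrays. The nearest approach was between the first Br array and the second Ag array. Means were 71.5 ± 30.5 in Br and 224 ± 58.8 in Ag (SD, n = 3 each), with a log2 difference of -1.49 ± 0.28, and -1.77 without the first Br array.

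MCCA, the biotin-carrying subunit of the carboxylase, was the most uneven of the lower genes within Br. It read 414, 93.0 and 63.3 on the Br arrays, against 552, 872 and 622 on the Ag arrays. The first Br array was nearer to the Ag arrays than to its own group. Means were 190 ± 194 in Br and 682 ± 169 in Ag (SD, n = 3 each), with a log2 difference of -2.14 ± 0.60. The difference was -2.91 without the first Br array and -1.65 at the other end of the range over single arrays left out.

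MCCB, the other carboxylase subunit, read 503, 279 and 228 on the Br arrays, against 464, 501 and 599 on the Ag arrays. Its first Br array lay above 2 of the 3 Ag arrays, so the groups overlapped. The log2 difference was -0.66 ± 0.28, and -0.98 without the first Br array. Divided by MCCB, the MCCA signal was 0.822, 0.333 and 0.277 on the Br arrays, against 1.19, 1.74 and 1.04 on the Ag arrays. The MCCA signal relative to that of MCCB was thus lower on all 3 Br arrays than on any Ag array. On the first Br array the MCCB signal itself lay within the Ag range.

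D2HGDH, the second electron donor, read 88.6, 78.7 and 78.7 on the Br arrays, against 60.7, 71.4 and 79.1 on the Ag arrays. Only the first Br array lay above all Ag arrays. Its log2 difference was 0.14 ± 0.13, which became -0.0015 without the first array of both groups.

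MGL read 618, 122 and 115 on the Br arrays, against 204, 97.4 and 199 on the Ag arrays. The first Br array alone was high, and the other Br arrays lay between the Ag arrays. Its log2 difference of 0.35 ± 0.62 turned negative without that array, at -0.41. The direction of MGL therefore rests on 1 array.

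In a limma fit across all 22746 probe sets, with Benjamini-Hochberg adjustment and a threshold of 0.05, 2 of the 8 genes were called, ETFBETA and ETFQO, both lower. The share called over all probe sets was 2.08%, with 1.12% called lower. Because the genes were chosen on this contrast, the count is not read against that share. The same holds for the calls under the other settings, which use the same arrays. Without the first Br array 5 of the 8 were called (ETFBETA, ETFQO, IVD, MCCA and MCCB, all lower) and 3.89% of all probe sets. Without any other single array only ETFBETA was called, with between 0.462% and 1.04% of all probe sets. ETFQO was not called with a pseudocount of 1 (0.651% of all probe sets called) or when replicate numbers entered as a block (1.53%). IVD was called with that block, with the values as deposited (2.20%) and with median centring (2.38%). It was also called without dim probe sets (4.48% of those kept), with a trend in eBayes (1.94%) and with array weights (3.91%). MCCA was called with array weights. Without the first array of both groups, ETFBETA and MCCA were called (2.34%). The share over all probe sets thus also moved between settings.

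The lower genes also varied alike within the Br group. ETFBETA, ETFQO, IVD, MCCA and MCCB were each highest on the first Br array and lowest on the third. MGL had the same order, which made 6 of the 8 genes. Of all probe sets, 18.2% had that order, and of the 389 that were lower by at least 1 on the log2 scale in the second and the third Br arrays, 50.9% did. The 389 also had those 2 arrays below every Ag array. The order followed that of the arrays on the first principal component.

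The first Br array was not placed alike for each gene. Its position can be given on a scale where 0 is the Ag mean and 1 the mean of the other 2 Br arrays, on log2 values. It was 0.743 for ETFBETA, 0.599 for ETFQO and 0.537 for IVD, so these were nearer to the low level. It was 0.218 for MCCA, near the Ag level. The median of the 389 probe sets was 0.550, with quartiles of 0.165 and 0.918, so all 4 genes lay within the middle range of the lower probe sets. Within Ag no single order held: ETFQO and MCCB were highest on the third array, ETFBETA and MCCA on the second.

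**Figure D2:**
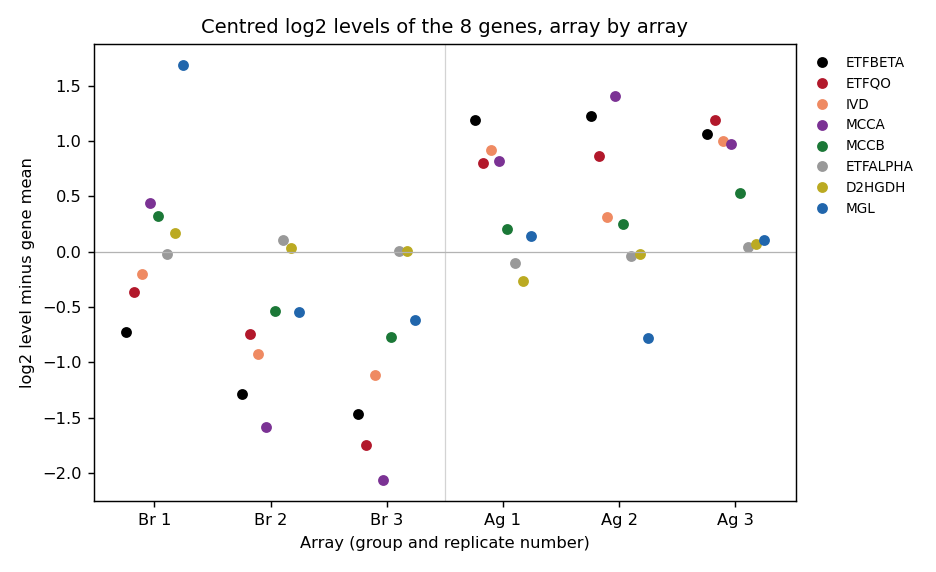
Log2 level of each gene on each array after normalization, minus that gene's mean over the 6 arrays. On the first Br array the genes spread widely, with ETFBETA lowest and MGL highest, and on the other Br arrays MCCA, ETFBETA, ETFQO and IVD lie lowest.

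Likeness of array profiles was measured as the root mean square distance between log2 values, each centred on the gene's mean over the 6 arrays. Both groups enter this distance, so it includes the difference on which the genes were chosen, and it carries no test. ETFBETA and ETFQO were 0.36 apart, ETFQO and IVD 0.37, and ETFBETA and IVD 0.49. MCCA was 0.55 from ETFQO and 0.57 from ETFBETA. MCCB lay nearer to IVD (0.46) than to its partner subunit MCCA (0.89). The profiles were centred and not scaled, so a difference in the size of the change adds to the distance. The log2 difference between groups was -0.66 for MCCB, -1.49 for IVD and -2.14 for MCCA. These distances therefore do not show which of the 2 genes MCCB followed more closely in shape. ETFALPHA and D2HGDH were 0.11 apart, both nearly level across arrays, and ETFALPHA was 1.22 from ETFBETA. MGL was at least 0.72 from every other gene.

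**Figure D3:**
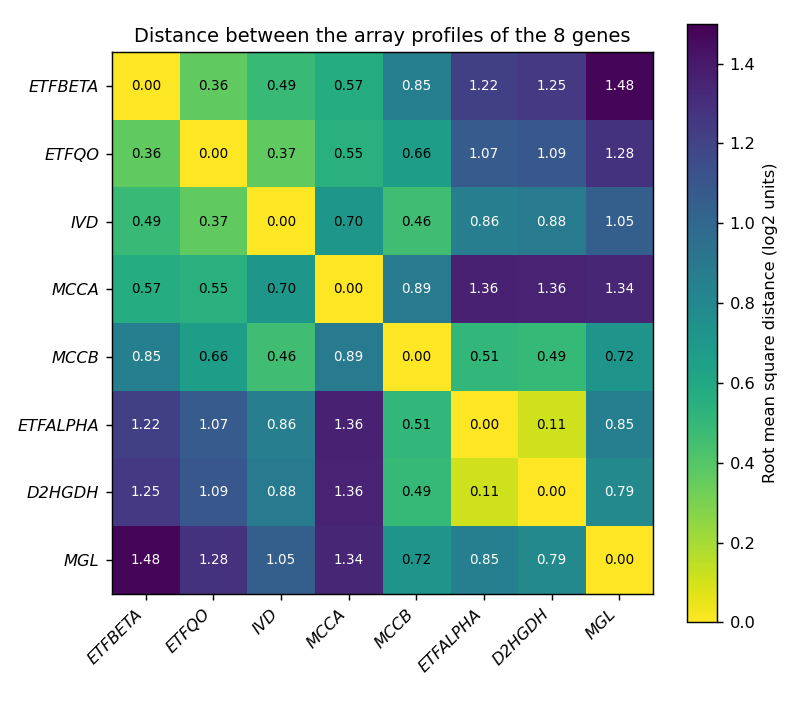
Root mean square distance, in log2 units over 6 arrays, between the centred profiles of each pair of the 8 genes. ETFBETA, ETFQO, IVD and MCCA form a block of distances of at most 0.704, ETFALPHA and D2HGDH form a pair at 0.11, and MGL stands off from all.

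Ordered by closeness to ETFBETA among the other 22745 probe sets, ETFQO came at place 25, IVD at 63, MCCA at 99 and MCCB at 574. ETFALPHA came at place 13079, D2HGDH at 15034 and MGL at 21533. The 5 closest genes with a symbol were ATB2 (distance 0.34), an aldo-keto reductase gene, then ETFQO itself, CYTC6A (0.38), a thylakoid cytochrome gene, MSRB5 (0.43), for a methionine sulfoxide reductase, and IVD. For IVD they were UGT72E1 (0.20), a glucosyltransferase gene, AKINBETA1 (0.26), for a regulatory subunit of the SnRK1 energy-sensing kinase, SCPL34 (0.31), a carboxypeptidase-like gene, CYTC6A (0.32) and MYBC1 (0.33). The distances cover 6 arrays, and only 1535 genes had both a symbol and a probe set.

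Other genes placed on the branched-chain pathway were followed in the same fit. Of 22 listed by locus code, 9 had a probe set of their own, 0 were called by limma, and 2 had an unadjusted p under 0.05, as did 16.1% of all probe sets. That share is the background for the like counts of the lists below. Of the 9 differences, 7 were positive and 2 negative, against 11274 positive and 11472 negative over all probe sets. The positive ones included BCAT4, at 0.21, and AT2G26800, at 0.0011. The median log2 difference of the 9 was 0.08, against -0.0018 over all probe sets. ALDH6B2, for methylmalonate-semialdehyde dehydrogenase of the valine branch, was the lowest. It read 239, 102 and 92.9 on the Br arrays, against 536, 424 and 236 on the Ag arrays. The first Br array lay just above the third Ag array, so the groups overlapped, and the log2 difference of -1.40 ± 0.41 missed the threshold (limma adjusted p = 0.15). It was called without the first Br array, with a log2 difference of -1.81 (adjusted p = 0.044). AT1G50110, which the annotation gives no name, had the largest positive value, 56.1 ± 29.0 in Br and 19.7 ± 1.22 in Ag (SD, n = 3 each; log2 difference 0.89, limma adjusted p = 0.17). The aminotransferase gene BCAT4, known for the chain extension of methionine, read 1850 ± 275 in Br and 1753 ± 451 in Ag (SD, n = 3 each).

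The list of the opposite direction, branched-chain amino acid synthesis, had 3 of 17 loci measured. Limma called 0, and 1 locus had an unadjusted p under 0.05, against 16.1% of all probe sets. AT2G31810, which the annotation gives no name, read 562, 331 and 217 on the Br arrays, against 938, 837 and 968 on the Ag arrays. All its Br arrays were lower, and its profile was 0.20 from that of IVD, at place 4 of all probe sets. Its log2 difference of -1.34 ± 0.31 missed the threshold (limma adjusted p = 0.089) and passed it without the first Br array (adjusted p = 0.016). AT3G58610 read 1856 ± 258 in Br and 2418 ± 253 in Ag (SD, n = 3 each; log2 difference -0.27, limma adjusted p = 0.45).

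Of 18 genes tied to darkness, sugar starvation or their kinase, 2 were measured. Limma called 0, and 1 gene had an unadjusted p under 0.05, against 16.1% of all probe sets. AKINBETA1 read 664, 377 and 312 on the Br arrays, against 1019, 1093 and 1010 on the Ag arrays. Every Br array lay below the Ag arrays, which were close together. Its log2 difference of -1.22 ± 0.26 missed the threshold (limma adjusted p = 0.072) and passed without the first Br array (adjusted p = 0.0072). The other regulatory subunit genes of the kinase, KINbeta2 and KINbeta3, had log2 differences of 0.18 and 0.06 (limma adjusted p = 0.49 and 0.90). BZIP53, a transcription factor gene of the starvation response, read 346 ± 53.7 in Br and 305 ± 63.8 in Ag (SD, n = 3 each; limma adjusted p = 0.66). The clock gene GI, the 1 measured of 13 clock genes, read 594, 111 and 124 on the Br arrays, against 493, 326 and 152 on the Ag arrays. Whether time of day has a part in the values above was not tested.

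Of 25 genes that break down other amino acids, 3 were measured. Limma called 0, and 1 gene had an unadjusted p under 0.05, against 16.1% of all probe sets. The asparaginase gene ASPGB1 read 32.2 ± 5.63 in Br and 17.5 ± 4.67 in Ag (SD, n = 3 each; log2 difference 0.47, limma adjusted p = 0.20). The lysine breakdown gene LKR/SDH (AT4G33150) had a log2 difference of -0.26 (limma adjusted p = 0.52).

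Other entry points and carriers of electrons in respiration were set beside ETFBETA and ETFQO. Of 7 such genes, for alternative NAD(P)H dehydrogenases and cytochrome c, 0 were called by limma. An unadjusted p under 0.05 was found for 2, in opposite directions, against 16.1% of all probe sets. NDB1 read 69.1, 61.1 and 61.0 on the Br arrays, against 103, 95.0 and 90.1 on the Ag arrays (log2 difference -0.53 ± 0.11, limma adjusted p = 0.070). The groups did not overlap, and the gap was small beside that of ETFBETA. NDB2 read 57.5, 108 and 143 on the Br arrays, against 37.0, 31.8 and 60.9 on the Ag arrays (log2 difference 0.91 ± 0.31, limma adjusted p = 0.21). It was called without the first Br array (adjusted p = 0.046, log2 difference 1.25). The cytochrome c genes CYTC-1 and CYTC-2 had log2 differences of 0.06 and 0.12 (limma adjusted p = 0.87 and 0.92).

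**Figure D4:**
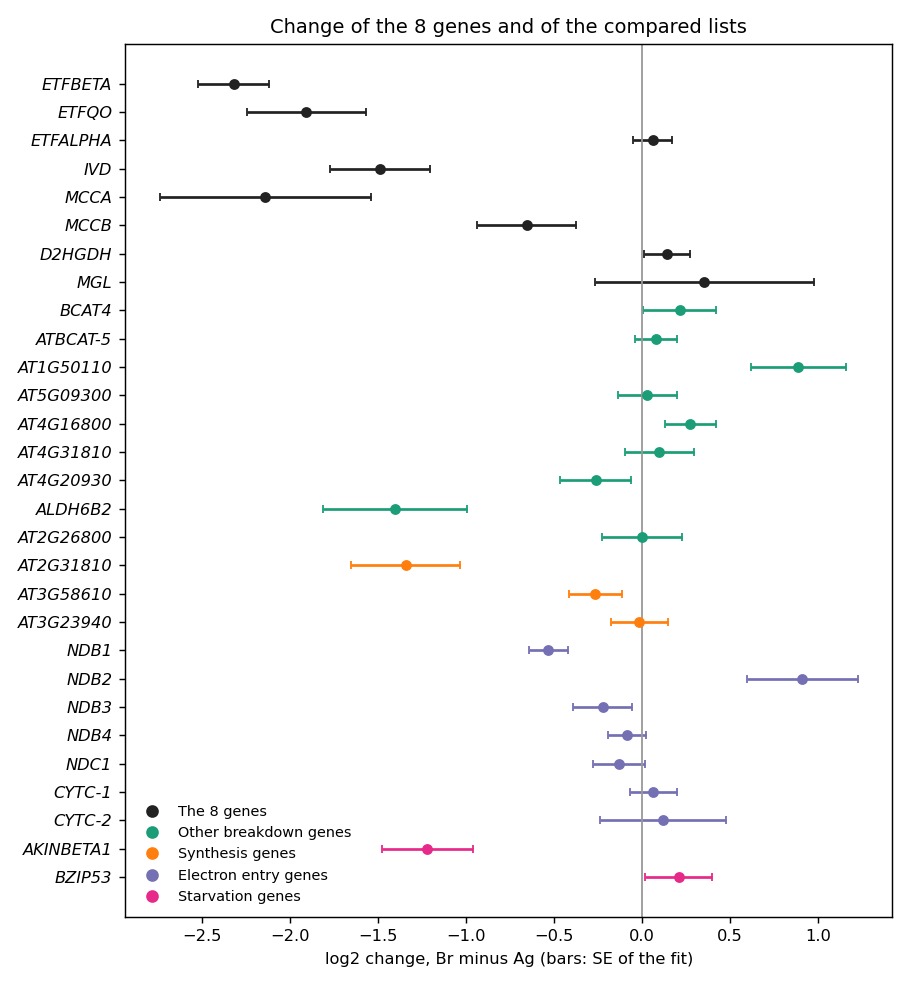
Log2 difference, Br minus Ag, with the SE of the fit as bars, for the 8 genes (top, black) and for the measured genes of 4 compared lists. ETFBETA, MCCA, ETFQO and IVD lie furthest to the left, and ALDH6B2, AT2G31810 and AKINBETA1 are the list genes nearest to them.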

How the data were processed

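RNA of pooled plants was hybridised to one-colour Affymetrix arrays, per the labels' protocols. Each deposited value is a linear-scale intensity of 1 probe set, and the mean of an array without the lowest and highest 2% is 100. The software that made them is not given in the sources used here. 0 columns lacked a sample. After removal of 64 control probe sets, 16 was added and log2 taken. Array medians then differed by 0.15, above the limit of 0.1, so arrays were quantile normalized. The 6 Arabidopsis arrays were fitted with limma 3.58.1 in R 4.3.3 (lmFit, eBayes, two-sided), checked on simulated data, and p-values were adjusted over all probe sets. Alternatives changed the scaling, pseudocount, filter, block, trend, weights, threshold and arrays kept. Figures used matplotlib 3.10.9.

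Gene names came from the platform annotation through the TAIR10.1 gene table: 1 gene was listed for 13513 probe sets, several for 503 and none for 8730, so most pathway genes could not be followed. Probe sets of several genes were left out. The members and lists were chosen with earlier results of these data known, and the electron entry, kinase subunit and mobilisation lists after the annotation was read. Each list names its called genes or, with none, the 2 of largest change, besides BCAT4, CYTC-1, CYTC-2, KINbeta2, KINbeta3 and PAHX, which were added for their roles.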

Additional observations from a re-analysis of the deposited data

How the results depend on the processing

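The log2 differences of ETFBETA, ETFQO, IVD, MCCA and MCCB kept their negative sign in all settings run, and ETFALPHA its positive one. D2HGDH turned negative without the first array of both groups, and MGL there (-0.24) and without the first Br array. The count over all probe sets was 473. It was 148 with a pseudocount of 1, 889 with array weights, 111 at a threshold of 0.01, and between 105 (without the second Br array) and 884 (without the first Br array) with 1 array left out. Leaving out Ag arrays gave 237 (replicate 1), 119 (replicate 2) and 143 (replicate 3), and leaving out Br replicate 3 gave 110. Deviations from the group mean correlated between the Br and Ag arrays of the same replicate number at 0.32, 0.029 and 0.11 (replicates 1, 2 and 3). The first arrays of both groups thus shared a part of their deviations, and the other replicates little. The main fit did not pair the arrays, and what the replicate number stands for was not tested. With the replicate number as a block, 347 probe sets passed in all and 1 of the other branched-chain breakdown genes did, ALDH6B2 (adjusted p = 0.037). With 1 array left out, 0 to 1 genes passed in that list, in the synthesis list, the starvation list, the electron entry list and the mobilisation list. The starvation list also had 1 call (AKINBETA1) with median centring, without dim probe sets, with array weights and without both first arrays. The synthesis list had 1 (AT2G31810) without dim probe sets, with weights and without both first arrays, and the electron entry list 1 (NDB1) with a pseudocount of 32 and with weights. No gene had a second probe set to try. Leaving out both first arrays was chosen after seeing the data.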

Other observations

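Genes next to the 8 on the chromosome were looked at after the values were seen. Of the 35 measured protein-coding genes within 5 genes on either side, 2 were called by limma, against 2.08% of all probe sets. AT5G43440, the gene directly beside ETFBETA, read 15.7, 20.7 and 18.9 on the Br arrays, against 137, 82.2 and 77.5 on the Ag arrays (log2 difference -1.76, limma adjusted p = 0.0098). All its Br arrays were low, the first included. The other 4 measured neighbours of ETFBETA had log2 differences between -0.16 and 0.38 and were not called. AT1G50970, 3 genes from ETFALPHA, read 21.5, 27.2 and 34.5 on the Br arrays, against 2.43, 4.33 and 6.08 on the Ag arrays (log2 difference 1.04, limma adjusted p = 0.027). The 4 measured neighbours of ETFQO had log2 differences between -0.30 and 0.05, and the 3 of IVD between -0.64 and -0.04. Limma called 0 of them. Of all 35 neighbours, 6 had an unadjusted limma p under 0.05, 1 of them near IVD and 2 near MCCA, against 16.1% of all probe sets.

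Of 8 genes of oil, sugar and nitrogen mobilisation, 0 were called by limma and 1 had an unadjusted p under 0.05, against 16.1% of all probe sets. That was SDP1, a lipase gene of oil breakdown, at 164 ± 22.3 in Br and 241 ± 60.9 in Ag (SD, n = 3 each; log2 difference -0.49, limma adjusted p = 0.28). The sugar transporter gene SAG29, also called SWEET15, read 2.07, 40.2 and 46.7 on the Br arrays, against 2.70, 11.8 and 2.03 on the Ag arrays (log2 difference 0.86, limma adjusted p = 0.44). The first Br array was low, like the Ag arrays, and without it the gene was called (adjusted p = 0.039). The phytol breakdown gene PAHX read 252 ± 44.2 in Br and 302 ± 42.9 in Ag (SD, n = 3 each), and missed the threshold (limma adjusted p = 0.59).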
